A study of Mus musculus with 12 samples.

Results

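Slices of mouse ventral CA1 that had received strong tetanization together with 200 Hz stimulation of the basolateral amygdala (STET_S200, 3 libraries) were compared with slices given basal stimulation only (Control, 3 libraries), over all genes with enough reads. These are 6 of the 12 RNA sequencing libraries of the study, the other 6 being tetanization alone (STET, 3) and tetanization with 100 Hz amygdala stimulation (STET_S100, 3). All mice were wild-type C57BL/6J males of 5 to 7 weeks, and all slices were acute, 400 µm thick and incubated before use. Tetanization was 3 trains of 100 pulses at 100 Hz, a protocol for late long-term potentiation (L-LTP). The labels name the amygdala rate of STET_S200 as 200 Hz but give 100 Hz in a bracket beside it, so these statements of the rate conflict, and the name used here follows the label. Each library pooled 6 slices, from which tissue of 1 mm2 near the electrodes was cut out 30 min after stimulation, and each mouse gave 4 slices, 1 to each group. The labels do not say which libraries share mice, so the p-values measure the spread between these pooled libraries, and Control and STET_S200 are treated as independent. A slice holds cut axons and cells of several types, and in such bulk RNA fewer cells of a type and less RNA per cell cannot be told apart.

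As background, synaptic activity in pyramidal neurons opens calcium channels and NMDA receptors, and the kinases that follow act on transcription factors already present, chiefly CREB and SRF. These switch on immediate early genes within minutes, without new protein synthesis. Some of these genes encode transcription factors (Fos, Junb, Egr2, Npas4), others act directly at the synapse (Arc) or end the signal (Dusp1, Zfp36), and a second wave of genes follows over hours. Ventral CA1 exchanges projections with the basolateral amygdala, and stimulation there can alter the persistence of hippocampal potentiation.

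The Control libraries held 36.3 to 52.8 M counted reads and the STET_S200 libraries 36.8 to 44.8 M. Levels are CPM, read counts divided by each library's total, in counts per M, with totals adjusted by TMM (trimmed mean of M values, which assumes that most genes do not differ). The tissue label was checked against 7 markers of CA1 pyramidal neurons, whose sum lay between 873 and 1019 CPM in Control and between 929 and 1048 CPM in STET_S200. The sum of 14 subiculum and amygdala markers was 1062 to 1185 CPM in Control and 1007 to 1139 CPM in STET_S200. Several libraries stood apart. Fabp4, made in fat and capillaries, was at 8.09 CPM in Control 3 and at 7.08 CPM in both STET_S200 2 and STET_S200 3, with no more than 0.109 CPM in the other three, and Alb, made by the liver, was high in the same libraries. Of 6 peripheral tissue markers tested, Umod and Slc34a1 ran the other way. Umod was at 0.718, 0.382 and 0 CPM in Control and at 0 CPM in STET_S200. Slc34a1 was at 0.359, 0.491 and 0.246 CPM against 0.0951, 0.111 and 0.164 CPM. Below, libraries with or without peripheral tissue RNA are named by Fabp4 above 1 CPM alone. The summed level of 6 dentate gyrus markers was 40.8 CPM in Control 3 and 29.6 CPM in STET_S200 3 and lay between 90.1 and 120 CPM in the other libraries. The sum of 14 choroid plexus markers was 449, 2002 and 397 CPM in Control 1, 2 and 3 against 106, 92.0 and 167 CPM in STET_S200 1, 2 and 3. The choroid plexus is a secretory tissue of the ventricles that lies close to the hippocampus. Whether this difference came from dissection or from the stimulation was not tested. The 5 ependymal markers, in contrast, overlapped (19.3 to 25.1 CPM in Control, 19.8 to 23.4 CPM in STET_S200).

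**Figure D1:**
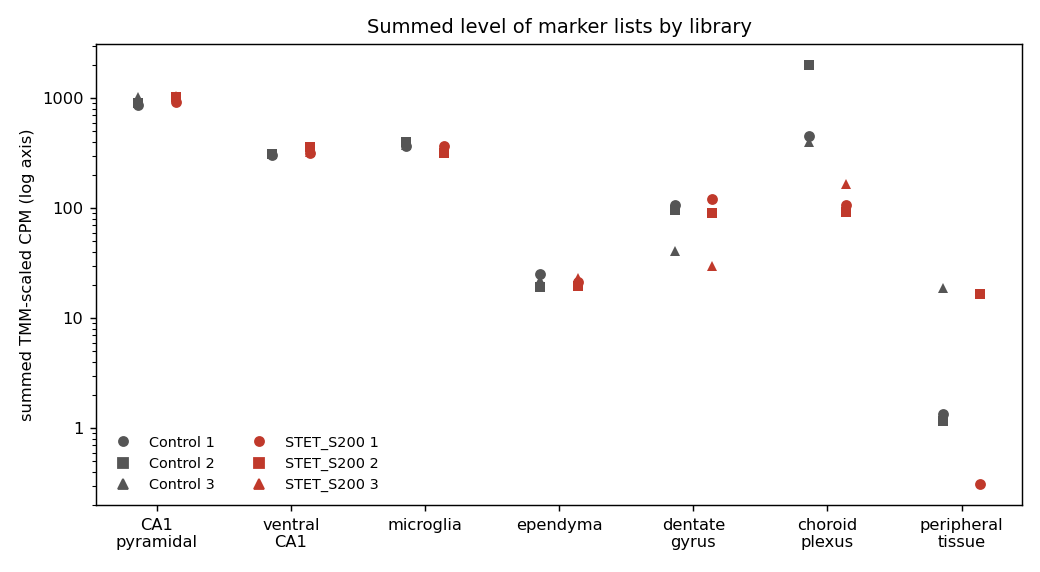
Summed CPM (log axis) of 7 lists of marker genes in each Control and STET_S200 library, 1 point per library. Choroid plexus markers were lower in all 3 STET_S200 libraries (92.0 to 167 CPM) than in the Control libraries (397 to 2002 CPM), while markers of CA1 pyramidal neurons overlapped and peripheral tissue markers were high in Control 3, STET_S200 2 and STET_S200 3.

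No gene passed the test in this comparison. Each of 19492 genes was tested with edgeR's quasi-likelihood test with Benjamini-Hochberg adjustment at 0.05, and 0 genes (0%) passed, the smallest adjusted p being 0.218. At an unadjusted p under 0.05 there were 1154 genes (5.92%), with 573 higher (2.94%) and 581 lower (2.98%) in STET_S200. limma-voom also called 0 (1110 unadjusted, 5.69%), and DESeq2 called 4 of 19485 genes (0.0205%; 1004 unadjusted, 5.15%), namely Sstr3, Neurod2 and Lpl on the higher side and Igfbp5 on the lower side. With no filter on low counts, edgeR called 20 genes on the higher side and 49 on the lower side, so the count of 0 depends on that filter. Because no single gene passed with edgeR under the filter, genes are described below by their level in every library and by whether the groups overlapped. All 3 STET_S200 libraries lay above all 3 Control libraries for 1117 genes (5.73%) and below them for 1030 (5.28%), and these shares are the background for the counts in gene lists. Differences are log2 fold changes, STET_S200 minus Control, each with its standard error (SE) from the fit. Over all genes 50.6% were positive, the median was 0.002, and the 5th and the 95th percentile were −0.43 and 0.36.

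Few well expressed genes differed by a large amount. With a mean log2 CPM of 2 or more, 30 genes had a log2 fold change beyond 1 in either direction. On the higher side there were 2, the activity-regulated genes Arc and Npas4. On the lower side there were 28, of which 27 did not overlap with Control and 11 were on the list of choroid plexus markers. One of the 28, Ttr, the transthyretin gene, was at 233, 1167 and 183 CPM in Control and at 5.14, 1.73 and 40.6 CPM in STET_S200. With a score of choroid plexus marker level as a covariate its log2 fold change was −0.80 in place of −5.10. Ttr is itself part of that score, so a smaller value was built in.

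**Figure D2:**
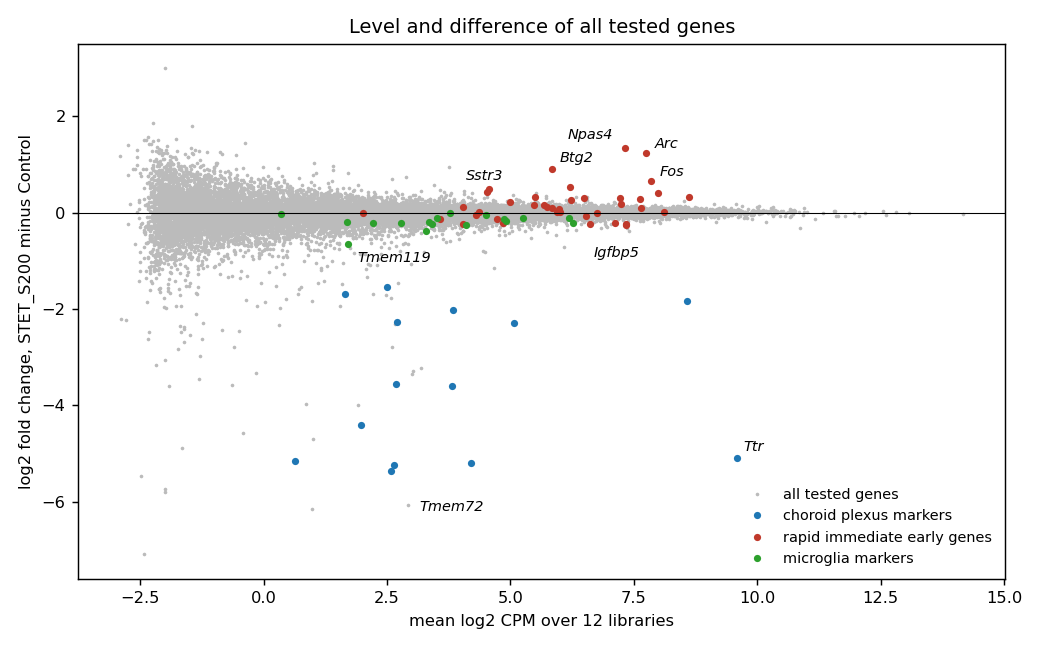
Mean log2 CPM over the 12 libraries (x) and log2 fold change of STET_S200 over Control (y) for the 19492 tested genes. Choroid plexus markers (blue) lie far below 0, and Arc (1.24), Npas4 (1.35) and Btg2 (0.90) stand above the other genes of their level. All 17 microglia markers (green) are negative, with a median of −0.19 and Tmem119 the lowest at −0.64.

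Rapid immediate early genes gave the largest number of genes above Control of the lists examined. Of 40 listed 39 were tested, and 14 of them (35.9%) had all 3 STET_S200 libraries above all 3 Control libraries, against 5.73% of all genes, 3 lay below in all, and the median log2 fold change was 0.12 with 28 positive. Arc (ENSMUSG00000022602), which regulates the endocytosis of AMPA receptors, was at 94.1, 115 and 80.5 CPM in Control 1, 2 and 3 and at 277, 193 and 215 CPM in STET_S200 1, 2 and 3. Every stimulated library exceeded every basal one, with STET_S200 1 the highest. The log2 fold change was 1.24 ± 0.33 (SE; unadjusted p = 0.00561, edgeR adjusted p = 0.786). Npas4 (ENSMUSG00000045903), a transcription factor that responds to calcium entry, was at 54.7, 75.3 and 61.4 CPM in Control and at 195, 113 and 178 CPM in STET_S200. Here STET_S200 2 was the lowest of the stimulated libraries and still above all Control libraries (1.35 ± 0.41). Fos, which forms the AP-1 transcription factor with Jun proteins, read 151, 168 and 152 CPM in Control and 281, 217 and 244 CPM in STET_S200, again without overlap (0.66 ± 0.23).

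The other transcription factors of the list differed less. Junb was at 193, 205 and 175 CPM in Control and at 279, 234 and 249 CPM in STET_S200 (0.41 ± 0.18). Jun (0.29 ± 0.11), Ier2, a small nuclear regulator (0.42 ± 0.17), and the zinc finger factors Egr2 (0.49 ± 0.26) and Egr4 (0.31 ± 0.18) were likewise above Control in all libraries. Egr1, the most abundant of the zinc finger factors in counts, overlapped with 302, 342 and 289 CPM in Control against 422, 336 and 415 CPM in STET_S200. Only STET_S200 2 reached into the Control range. Fosb overlapped widely (0.02 ± 0.14), as did the nuclear receptor gene Nr4a1 (0.19 ± 0.25).

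Genes that restrain signalling or RNA stability made up most of the remaining members. Btg2, a cofactor of mRNA deadenylation that slows proliferation, was at 30.2, 36.4 and 27.7 CPM in Control and at 72.6, 53.7 and 49.5 CPM in STET_S200 (0.90 ± 0.30). The stress-responsive growth regulator Gadd45g (ENSMUSG00000021453) was at 56.9, 57.3 and 45.2 CPM against 87.2, 74.5 and 69.7 CPM (0.54 ± 0.14). In both genes STET_S200 1 was the highest library and no library overlapped. Zfp36, which promotes the decay of AU-rich mRNAs (0.33 ± 0.11), Rgs2, which shortens G protein signalling (0.30 ± 0.13), Dusp1, a MAP kinase phosphatase (0.27 ± 0.14), and the pseudokinase gene Trib1 (0.16 ± 0.10) were above Control without overlap. Their separation was sometimes narrow. Trib1, for example, had 41.1 CPM in Control 2 and 41.2 CPM in STET_S200 3. With the choroid plexus score as a covariate Trib1 was at 0.10 and Rgs2 at 0.19.

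The 3 members on the lower side were Per1, Nr4a2 and Sik1. Nr4a2, a nuclear receptor gene, was at 108, 103 and 112 CPM in Control and at 98.0, 81.4 and 95.8 CPM in STET_S200 (−0.23 ± 0.07). Sik1, a salt-inducible kinase that restrains CREB coactivators, was at 30.2, 30.3 and 29.6 CPM against 27.1, 24.0 and 26.2 CPM (−0.22 ± 0.11; −0.07 with the choroid plexus score as a covariate). Per1, which is also a clock gene, is described with the clock genes below. Using only the 3 libraries of these groups without peripheral tissue RNA (Control 1, Control 2 and STET_S200 1), STET_S200 1 lay above both Control libraries for 25 of the 39 rapid genes, against 33.2% of all genes, and Nr4a2 differed by −0.11 in the fit of such libraries.

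**Figure D3:**
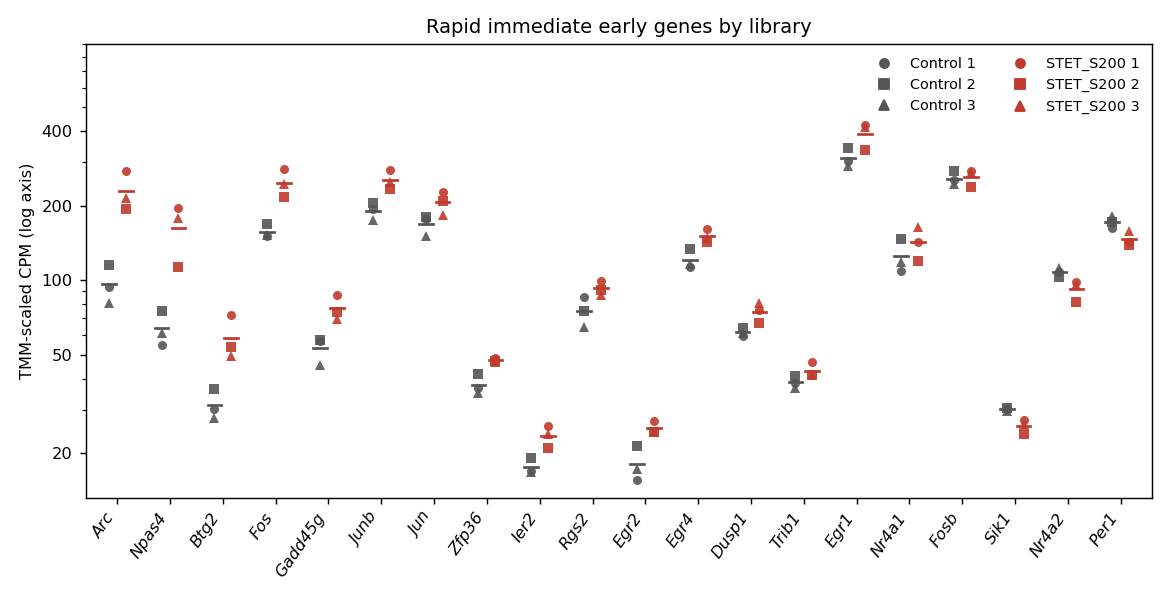
CPM (log axis) of 20 rapid immediate early genes in each Control (grey) and STET_S200 (red) library, with a bar at each group's mean. The first 14 genes, from Arc to Trib1, do not overlap and are higher in STET_S200, Egr1, Nr4a1 and Fosb overlap, and Sik1, Nr4a2 and Per1 lie lower in all 3 STET_S200 libraries.

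Promoter sequences are shown for rapid genes that lay above and below Control, because CREB, a main activator of such genes, binds the cAMP response element (CRE). The 250 bases before the start site were taken from RefSeq (build GRCm38.p6) for the 4 genes of the list with the smallest p that had an entry (Per1, with 2 start sites, Gadd45g, Nr4a2 and Npas4), and for Btg2 and Fos, chosen after their values were seen. Searched on both strands were the full element TGACGTCA, its core site TGACG, which the full element holds once on each strand, and the CArG box bound by SRF. Capitals mark matches, and each sequence runs 5′ to 3′ on the gene's strand.
Npas4 (chr19:4989972-4990221, minus strand): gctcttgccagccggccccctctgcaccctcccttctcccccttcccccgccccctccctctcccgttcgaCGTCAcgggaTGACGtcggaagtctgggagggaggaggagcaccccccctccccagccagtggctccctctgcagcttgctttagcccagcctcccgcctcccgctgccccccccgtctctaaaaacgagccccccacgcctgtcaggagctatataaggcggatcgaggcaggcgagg
Btg2 (chr1:134079156-134079405, minus strand): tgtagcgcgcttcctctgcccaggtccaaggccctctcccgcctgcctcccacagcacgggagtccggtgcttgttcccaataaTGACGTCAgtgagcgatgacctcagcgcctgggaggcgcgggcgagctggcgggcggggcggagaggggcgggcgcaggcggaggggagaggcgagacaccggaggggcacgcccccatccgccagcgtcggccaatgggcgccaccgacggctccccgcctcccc
Fos (chr12:85473640-85473889, plus strand): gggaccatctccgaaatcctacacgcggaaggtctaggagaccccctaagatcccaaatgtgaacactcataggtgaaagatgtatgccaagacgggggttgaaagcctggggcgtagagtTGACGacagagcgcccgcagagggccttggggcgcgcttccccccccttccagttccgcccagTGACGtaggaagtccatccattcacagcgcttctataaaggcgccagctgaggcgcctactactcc
Gadd45g (chr13:51846425-51846674, plus strand): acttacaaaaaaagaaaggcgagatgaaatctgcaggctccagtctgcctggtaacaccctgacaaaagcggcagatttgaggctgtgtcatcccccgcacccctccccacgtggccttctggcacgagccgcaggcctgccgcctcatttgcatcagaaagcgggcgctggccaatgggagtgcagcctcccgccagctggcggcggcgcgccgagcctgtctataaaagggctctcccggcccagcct
Nr4a2 (chr2:57124004-57124253, minus strand): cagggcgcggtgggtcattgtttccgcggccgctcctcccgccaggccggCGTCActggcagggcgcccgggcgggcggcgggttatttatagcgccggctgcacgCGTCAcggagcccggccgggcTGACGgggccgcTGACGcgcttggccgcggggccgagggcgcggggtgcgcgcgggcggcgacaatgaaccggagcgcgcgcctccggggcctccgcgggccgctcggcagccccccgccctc
Per1, first start site (chr11:69098699-69098948, plus strand): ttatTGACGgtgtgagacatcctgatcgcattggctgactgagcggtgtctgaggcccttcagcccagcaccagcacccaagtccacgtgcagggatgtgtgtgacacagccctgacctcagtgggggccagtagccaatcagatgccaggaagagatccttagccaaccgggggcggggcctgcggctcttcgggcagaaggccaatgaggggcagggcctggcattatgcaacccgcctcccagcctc
Per1, second start site (chr11:69099902-69100151, plus strand): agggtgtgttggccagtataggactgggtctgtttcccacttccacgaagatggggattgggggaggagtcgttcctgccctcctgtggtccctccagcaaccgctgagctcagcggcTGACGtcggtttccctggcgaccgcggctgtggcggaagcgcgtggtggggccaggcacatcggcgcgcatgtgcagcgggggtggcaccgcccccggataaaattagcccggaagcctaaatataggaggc
The Btg2 window held the full element, starting 166 bases before the start site. Core sites alone were present in Npas4 (2), Fos (2) and Nr4a2 (4) and once before each Per1 start, whereas the Gadd45g window held none of the motifs. No CArG box was found in these windows of 250 bases, and sequence further upstream was not searched, so a site there would be missed. So core sites occurred before genes that lay above Control and before genes that lay below it. Over all 32851 windows of this length 1.55% held the full element, 17.8% the core site and 1.47% a CArG box. Of the 31 rapid genes in the table, 4 held the full element, 21 a core site and 3 a CArG box before at least 1 of their start sites. Such counts are per gene, while the shares over all windows are per window, so the measures differ. All matches given here are letter matches only.

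Delayed activity-regulated genes and growth factors were largely unseparated. Of 26 delayed genes 2 lay above Control in all libraries (7.69%) and 1 below, with a median of 0.06. The 2 were Plk2, a kinase of homeostatic synaptic scaling, at 365, 367 and 361 CPM against 388, 377 and 386 CPM (0.07 ± 0.05), and Tll1, a secreted metalloprotease (0.16 ± 0.19). The lower one was Adcyap1, the gene of the neuropeptide PACAP, at 9.38, 5.46 and 6.20 CPM against 5.33, 2.31 and 4.07 CPM (−0.86 ± 0.37). The highest STET_S200 library of Adcyap1 lay just under the lowest Control library. In the 7 libraries of the study without peripheral tissue RNA Adcyap1 was at −0.49 and Tll1 at 0.05. Nptx2, a secreted protein that clusters AMPA receptors, was at 95.9, 77.7 and 65.8 CPM against 105, 105 and 93.1 CPM, and overlapped only through Control 1 (0.33 ± 0.14). The neurotrophin gene Bdnf (−0.06 ± 0.24), the scaffold gene Homer1 (−0.01 ± 0.08) and the activin gene Inhba (0.40 ± 0.41; 0.25 with the choroid plexus score) overlapped. None of 30 neurotrophin and growth factor genes separated the groups, and the same held for 21 postsynaptic scaffold genes and 28 plasticity kinase and phosphatase genes.

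The genes with the smallest p differed by small and even amounts. Sstr3 (ENSMUSG00000044933), which encodes the somatostatin receptor of primary cilia, was at 28.9, 30.3 and 26.0 CPM in Control 1, 2 and 3 and at 38.4, 37.8 and 34.3 CPM in STET_S200. The lowest stimulated library exceeded the highest basal one (0.37 ± 0.06, unadjusted p = 1.12e-05, edgeR adjusted p = 0.218, DESeq2 adjusted p = 7.17e-04). Neurod2 (ENSMUSG00000038255), a transcription factor of excitatory neurons, was at 127, 126 and 128 CPM against 147, 152 and 146 CPM, so that each group spanned only a few CPM (0.22 ± 0.04, edgeR adjusted p = 0.220, DESeq2 adjusted p = 7.82e-04). Lpl, the lipase that releases fatty acids from lipoproteins, was at 38.9, 40.6 and 38.8 CPM against 48.1, 54.5 and 53.8 CPM (0.40 ± 0.08, edgeR adjusted p = 0.534, DESeq2 adjusted p = 0.00473). Gpc1, a heparan sulfate proteoglycan of the cell surface, was at 91.3, 89.6 and 87.9 CPM against 103, 107 and 99.7 CPM (0.20 ± 0.04, edgeR adjusted p = 0.729).

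The next 8 higher genes had roles in several processes, and each lay above Control in all 3 libraries. They were the nucleolar gene Nifk (0.24 ± 0.06), the Nogo receptor homologue Rtn4rl1 (0.26 ± 0.06), the CpG-binding factor gene Cxxc5 (0.21 ± 0.05), the splicing factor gene Cdc40 (0.20 ± 0.05; 0.12 in the 7 libraries without peripheral tissue RNA), Ubtd1 (0.33 ± 0.08), the exocyst subunit gene Exoc5 (0.16 ± 0.04), the activin subunit gene Inhbb (0.39 ± 0.10) and the cyclin gene Ccne2 (0.45 ± 0.12). Inhbb was at 13.6, 13.7 and 16.4 CPM in Control and at 17.7, 21.7 and 17.5 CPM in STET_S200. Control 3 came close to the stimulated libraries.

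On the lower side Igfbp5 (ENSMUSG00000026185), a secreted binding protein of insulin-like growth factors, was at 125, 127 and 130 CPM in Control and at 111, 96.7 and 99.8 CPM in STET_S200. STET_S200 1, the stimulated library without peripheral tissue RNA, was the nearest to Control (−0.31 ± 0.06, edgeR adjusted p = 0.256, DESeq2 adjusted p = 0.00268, and −0.18 in the 7 libraries without such RNA). Otof, a calcium sensor of vesicle exocytosis best known from hair cells, was at 13.1, 12.6 and 12.7 CPM against 8.82, 10.6 and 7.57 CPM (−0.50 ± 0.11). Slc16a11, of the monocarboxylate transporter family, was at 8.28, 7.80 and 8.34 CPM against 6.25, 5.88 and 5.36 CPM (−0.48 ± 0.10). In these genes the Control libraries lay close together and the STET_S200 libraries were spread more widely. Cux2, a transcription factor of upper layer cortical neurons, was at 22.3 to 24.2 CPM in Control against 18.5 to 20.1 CPM in STET_S200 (−0.26 ± 0.06).

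The other 8 lower genes lay below Control in all libraries as well. They were the phospholipid phosphatase-related gene Plppr3 (−0.21 ± 0.05), the phospholipase C gene Plch1 (−0.50 ± 0.12), the GABA-A receptor theta subunit gene Gabrq (−0.76 ± 0.19), the immunoglobulin family gene Igsf3 (−0.34 ± 0.08), Pid1 (−0.25 ± 0.06), the TGF-beta family ligand gene Gdf10 (−0.43 ± 0.11), the Arf GTPase activator gene Adap2 (−0.63 ± 0.16) and the clathrin adaptor gene Hip1r (−0.16 ± 0.04). Gabrq and Adap2 were the lowest in level, at 2.86 to 4.63 CPM and 2.74 to 3.42 CPM in Control against 1.98 to 2.52 CPM and 1.69 to 2.19 CPM in STET_S200. The adjusted p was 0.786 with edgeR for each of these 8 genes.

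**Figure D4:**
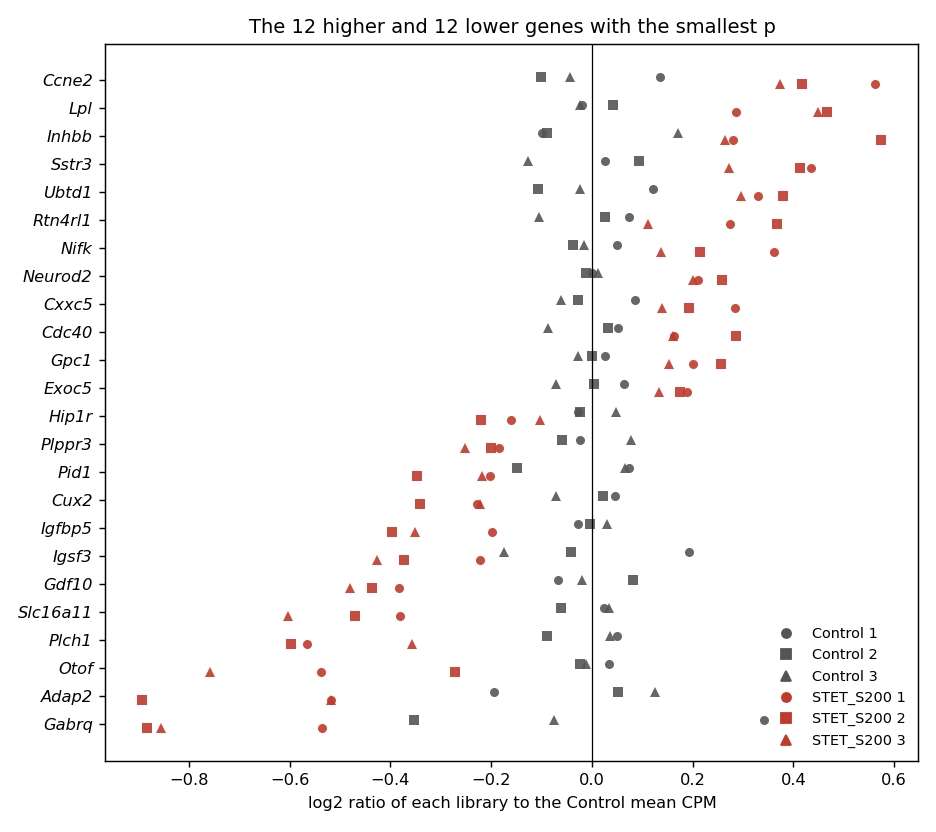
Log2 ratio of each library's CPM to the mean of the Control libraries, for the 24 genes taken by smallest p, 12 in each direction, among those whose mean log2 CPM was 0 or more. Control (grey) and STET_S200 (red) libraries do not overlap for any of the 24 genes, which were chosen by p from these values.

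Synaptic receptors and their partners were mostly unseparated, with a few on either side. Of 23 NMDA, kainate and metabotropic glutamate receptor genes 2 lay above (8.70%) and 1 below Control. The lower one, Grm2, a presynaptic metabotropic receptor, was at 34.8, 33.4 and 30.8 CPM against 25.6, 19.4 and 26.5 CPM (−0.47 ± 0.13). The higher ones, Grm5 (0.08 ± 0.04) and the NMDA receptor subunit gene Grin3a (0.11 ± 0.07), differed by less than Grm2, and with upper quartile scaling the count above Control was 0. In the 7 libraries Grm5 was at 0.03, and with the choroid plexus score Grm5 was at 0.03 and Grin3a at 0.01. Among 16 AMPA receptor subunit and auxiliary genes only the auxiliary gene Shisa9 separated, on the lower side (−0.15 ± 0.05). In the somatostatin and opioid list of 14 genes, Sstr3 was the only one above Control and Pnoc, the nociceptin precursor gene, the only one below (−0.18 ± 0.09; −0.08 in the 7 libraries).

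Noradrenaline, dopamine and acetylcholine modulate potentiation in the hippocampus, and their receptors were examined as a list. Of 34 monoamine and acetylcholine receptor genes 4 lay above Control (11.8%) and 1 below (2.94%), with a median of 0.01. The beta-1 adrenoceptor gene Adrb1 was at 30.1, 30.1 and 31.3 CPM in Control and at 33.9, 34.1 and 36.5 CPM in STET_S200 (0.19 ± 0.08; 0.09 with the choroid plexus score). The alpha-2A adrenoceptor gene Adra2a was at 31.6, 32.7 and 29.6 CPM against 33.2, 36.2 and 35.8 CPM (0.16 ± 0.07). STET_S200 1 was the lowest of the 3 for Adra2a, and in the 7 libraries without peripheral tissue RNA its difference was 0.04 (0.10 with the choroid plexus score). The muscarinic receptor gene Chrm4 (0.13 ± 0.07) and the serotonin receptor gene Htr4 (0.10 ± 0.10; 0.02 in the 7 libraries) were the others above, and the dopamine receptor gene Drd2, at 1.47 to 2.17 CPM in Control and 1.09 to 1.39 CPM in STET_S200, the one below (−0.50 ± 0.22).

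Genes of the presynaptic terminal and of synaptic adhesion came next. Of 33 genes of presynaptic release 5 lay below Control (15.2%, against 5.28% of all genes) and 2 above (6.06%), a split that was 3 and 0 with upper quartile scaling. Beside Otof the lower ones were the synapsin gene Syn3 (−0.26 ± 0.09), the calcium sensor gene Syt7 (−0.15 ± 0.06), the active zone scaffold gene Pclo (−0.12 ± 0.05) and Rims3 (−0.10 ± 0.07). Pclo was at 386, 385 and 376 CPM in Control and at 340, 342 and 373 CPM in STET_S200. The 2 above were the vesicle GTPase gene Rab3c (0.13 ± 0.06) and the SNARE gene Snap25 (0.08 ± 0.04), each at 0.03 in the 7 libraries without peripheral tissue RNA, and at 0.02 and 0.03 with the choroid plexus score. Of 36 synaptic adhesion genes 4 lay above (11.1%) and 0 below. They were Gpc1, the synaptic leucine-rich repeat genes Lrfn2 (0.16 ± 0.05) and Lrfn1 (0.07 ± 0.05; 0.03 in the 7 libraries and 0.02 with the score), and Slitrk5 (0.08 ± 0.03), an organiser of synapse formation. Lrfn2 was at 32.6, 33.1 and 31.4 CPM against 36.6, 36.9 and 34.8 CPM.

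Axon guidance genes and pyramidal neuron transcription factors separated in small numbers on both sides. Of 40 axon guidance genes 4 lay above Control and 3 below. The ephrin gene Efna3 was at 80.3, 77.4 and 78.7 CPM against 84.6, 90.8 and 87.6 CPM (0.15 ± 0.04), and the semaphorin gene Sema3e (0.22 ± 0.07), the ephrin receptor gene Ephb2 (0.16 ± 0.06) and Plppr4 (0.06 ± 0.04) were also above. Plppr3, the ephrin receptor gene Ephb1 (−0.17 ± 0.07) and the guidance receptor gene Robo3 (−0.87 ± 0.24) lay below. In the 7 libraries Ephb1 was at −0.10 and Robo3 at −0.53, and with the choroid plexus score Robo3 was at −0.59. Of 40 potassium channel genes 3 lay below Control (7.50%), namely Kcnn3 (−0.13 ± 0.05), Kcnb2 (−0.15 ± 0.06) and Kcnj9 (−0.13 ± 0.05). Among 34 pyramidal neuron transcription factors Neurod2, Lmo4 (0.14 ± 0.05; 0.07 with the score) and Mef2a (0.10 ± 0.03), an activity-dependent factor, lay above and Cux2 and Tshz2 (−0.72 ± 0.33) below. These were 8.82% above and 5.88% below, near the shares over all genes. Tshz2 was at 111, 62.5 and 80.9 CPM against 62.5, 31.0 and 61.8 CPM, so Control 2 and STET_S200 1 met at the same printed value. Of 5 ventral CA1 markers 2 lay above (40.0%) and 0 below. The neuropeptide gene Grp (54.3, 55.1 and 63.7 CPM against 65.7, 65.8 and 65.3 CPM) and the orphan receptor gene Gpr101 (0.32 ± 0.14) were the 2. With the choroid plexus score each was at 0.10, and Gpr101 was at 0.16 in the 7 libraries. The other 3, Dcn (0.13 ± 0.16), Nr2f2 (−0.05 ± 0.12) and Trhr (−0.26 ± 0.30), overlapped. The summed level of the 5 was 305 to 314 CPM in Control and 317 to 360 CPM in STET_S200. Most of it was Dcn, also listed as a mural and meningeal marker, at 167 to 180 CPM in Control and 171 to 213 CPM in STET_S200. Fibcd1, a CA1 marker, was at 290, 343 and 396 CPM against 371, 437 and 413 CPM and overlapped through Control 3. All 14 subiculum and amygdala markers overlapped, but 11 were negative, with a median of −0.09. Whether the dissected region differed between the groups was not tested.

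Corticosteroid-responsive genes and clock genes separated on the lower side alone. Of 21 corticosteroid-responsive genes 5 lay below Control (23.8%) and 0 above, and of 19 clock genes 5 lay below (26.3%) and 0 above, against 5.28% of all genes below. Per1 and Per2 are on both lists. The medians were −0.02 and −0.05. Per1, a repressor of the molecular clock that glucocorticoids and CREB can induce, was at 162, 172 and 181 CPM in Control and at 143, 139 and 158 CPM in STET_S200 (−0.23 ± 0.06, unadjusted p = 0.00256, edgeR adjusted p = 0.786). The highest stimulated library was below the lowest basal one by a small margin. Per2 was at 78.5, 87.6 and 81.6 CPM against 77.4, 69.8 and 71.0 CPM (−0.18 ± 0.07).

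Tsc22d3, the gene of the glucocorticoid-induced leucine zipper, was at 74.5, 74.4 and 96.2 CPM in Control and at 62.0, 56.8 and 72.1 CPM in STET_S200 (−0.36 ± 0.14). In each group the third library, which held peripheral tissue RNA, was the highest. STET_S200 2, which also held such RNA, was the lowest at 56.8 CPM. Hif3a, a hypoxia-inducible factor subunit (−0.63 ± 0.19), and the arrestin family gene Arrdc2 (−0.17 ± 0.10) completed the corticosteroid-responsive genes below Control. On the clock list the others were the PAR bZIP output genes Hlf (−0.19 ± 0.07) and Tef (−0.07 ± 0.04) and the repressor gene Cry2 (−0.12 ± 0.04). Cry2 was at 150, 159 and 152 CPM against 144, 145 and 135 CPM. With only Control 1, Control 2 and STET_S200 1, 9 of 21 and 9 of 19 genes lay below, against 32.0% of all genes, and in the 7 libraries Per1 differed by −0.22, Per2 by −0.10 and Hlf by −0.09. With the choroid plexus score as a covariate Per2 was at −0.10, Tsc22d3 at −0.22 and Hif3a at −0.39.

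The metabolic genes that separated were transporters below Control and enzymes above it. Of 27 glycolysis and monocarboxylate transport genes 5 lay above Control (18.5%) and 3 below (11.1%). The 3 below were membrane transporters, Slc16a11, the glucose transporter gene Slc2a1 (−0.17 ± 0.05) and the lactate exporter gene Slc16a3 (−0.48 ± 0.21; −0.31 with the choroid plexus score). Slc2a1 was at 65.8, 70.6 and 75.3 CPM in Control and at 61.8, 65.0 and 61.2 CPM in STET_S200. The 5 above were the enzyme genes Pfkl (0.10 ± 0.04), Tpi1 (0.08 ± 0.04), Ldha (0.07 ± 0.04), Eno1 (0.06 ± 0.04) and Gapdh (0.04 ± 0.03), whose differences were small. With the choroid plexus score Tpi1 was at 0.04, Ldha at 0.01 and Gapdh at 0.02, and in the 7 libraries Tpi1 was at 0.05 and Eno1 at 0.02. Of 18 hypoxia response genes 4 lay above (22.2%), namely Adm (0.25 ± 0.19), Ero1l (0.11 ± 0.06), Hif1a (0.08 ± 0.04) and Higd1a (0.06 ± 0.04), and Slc2a1 and Hif3a lay below (11.1%). With the score the 4 stood at 0.14, 0.01, 0.04 and 0.03, in that order, and Ero1l was at 0.07 in the 7 libraries. On the list of 14 insulin-like growth factor genes 3 lay below (21.4%) and 1 above (7.14%), with 12 negative. Igfbp3 was the one above, at 17.1, 17.8 and 16.5 CPM against 19.8, 19.4 and 21.8 CPM (0.25 ± 0.08). The lower ones were Igfbp5, Igfbp2 (−0.52 ± 0.49) and the growth factor gene Igf2 (−1.99 ± 1.09). For Igfbp2 and Igf2 the highest library was Control 2, which was also the highest in choroid plexus markers, and with the choroid plexus score as a covariate both turned positive (0.54 and 0.23).

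Proteasome genes differed by small amounts. Of 38 genes 32 were positive, 5 lay above Control (13.2%) and 0 below, and the median was 0.03. Psma1, a subunit of the core particle, was at 59.5, 57.6 and 58.2 CPM against 61.8, 64.0 and 67.4 CPM (0.14 ± 0.04). Psmb7 (0.07 ± 0.04), Psmd1 (0.07 ± 0.04), Psma5 (0.05 ± 0.05) and Psmb4 (0.03 ± 0.03) differed by less. In the 7 libraries Psma1 was at 0.08, and with the choroid plexus score Psmd1 and Psmb4 were each at 0.01 and Psma5 at 0.02. Of 39 histone and DNA modifying enzymes 28 were negative, and 3 lay below Control (7.69%), the methyltransferase genes Kmt2c (−0.15 ± 0.05), Kmt2a (−0.11 ± 0.05) and Dnmt1 (−0.10 ± 0.05). Chemokine and inflammatory genes had a median of 0.16 with 27 of 34 positive. Only Ch25h (0.30 ± 0.15; 0.14 with the score), Bcl3 (0.32 ± 0.18) and Nfkbiz (0.20 ± 0.14) of them lay above Control (8.82%), and the chemokine gene Cxcl12 lay below (−0.19 ± 0.08; −0.08 in the 7 libraries). On the list of 43 Wnt, Notch and BMP genes 3 lay above (6.98%) and 5 below (11.6%). The Notch target Hes5 was at 1.74, 1.25 and 1.15 CPM against 2.31, 3.13 and 1.97 CPM (0.83 ± 0.25, and 0.37 with the choroid plexus score), and Wnt4 (0.18 ± 0.07; 0.10 with the score) and the Wnt receptor gene Fzd9 (0.26 ± 0.13; 0.16 with the score) were also above. Those below were Fzd2 (−0.62 ± 0.18), the Wnt antagonist gene Sfrp1 (−0.69 ± 0.32) and the ligand genes Bmp6 (−1.08 ± 0.59), Bmp7 (−0.54 ± 0.26) and Bmp4 (−0.38 ± 0.26). Sfrp1, Bmp6, Bmp7 and Bmp4 were highest in Control 2, and with the choroid plexus score as a covariate they stood at −0.04, 0.02, 0.06 and 0.17.

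All 17 microglia markers had a negative log2 fold change, with a median of −0.19, and none passed the test. In 5 of them every STET_S200 library lay below Control (29.4%, against 5.28% of all genes), and 12 overlapped. Tmem119, a surface protein specific to microglia, was at 3.54, 3.38 and 5.25 CPM in Control and at 2.92, 2.18 and 2.68 CPM in STET_S200 (−0.64 ± 0.20). Tyrobp, an adaptor of microglial receptors, was at 11.3, 11.5 and 11.0 CPM against 9.96, 9.02 and 9.81 CPM (−0.24 ± 0.07). Csf1r, the receptor on which microglia depend for survival (−0.22 ± 0.08), the complement gene C1qa (−0.18 ± 0.07) and Aif1 (−0.19 ± 0.14) were the others. The summed level of all 17 markers was 369, 396 and 378 CPM against 368, 315 and 339 CPM, so STET_S200 1 lay just under the lowest Control library. STET_S200 2 and 3, the lower ones, held peripheral tissue RNA. Using only Control 1, Control 2 and STET_S200 1, 7 of 17 lay below, against 32.0% of all genes, and Tmem119 was at −0.24, Csf1r at −0.13 and C1qa at −0.10 in the 7 libraries. With the choroid plexus score Csf1r was at −0.13 and C1qa at −0.11. The part of peripheral tissue RNA in these values was not tested. Of 10 astrocyte markers 9 were also negative. Among them only Fgfr3 lay below Control, at 123, 139 and 136 CPM against 123, 119 and 122 CPM, with Control 1 and STET_S200 1 equal as printed (−0.13 ± 0.05; −0.08 with the score). None of 9 oligodendrocyte and 21 reactive astrocyte genes separated.

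**Figure D5:**
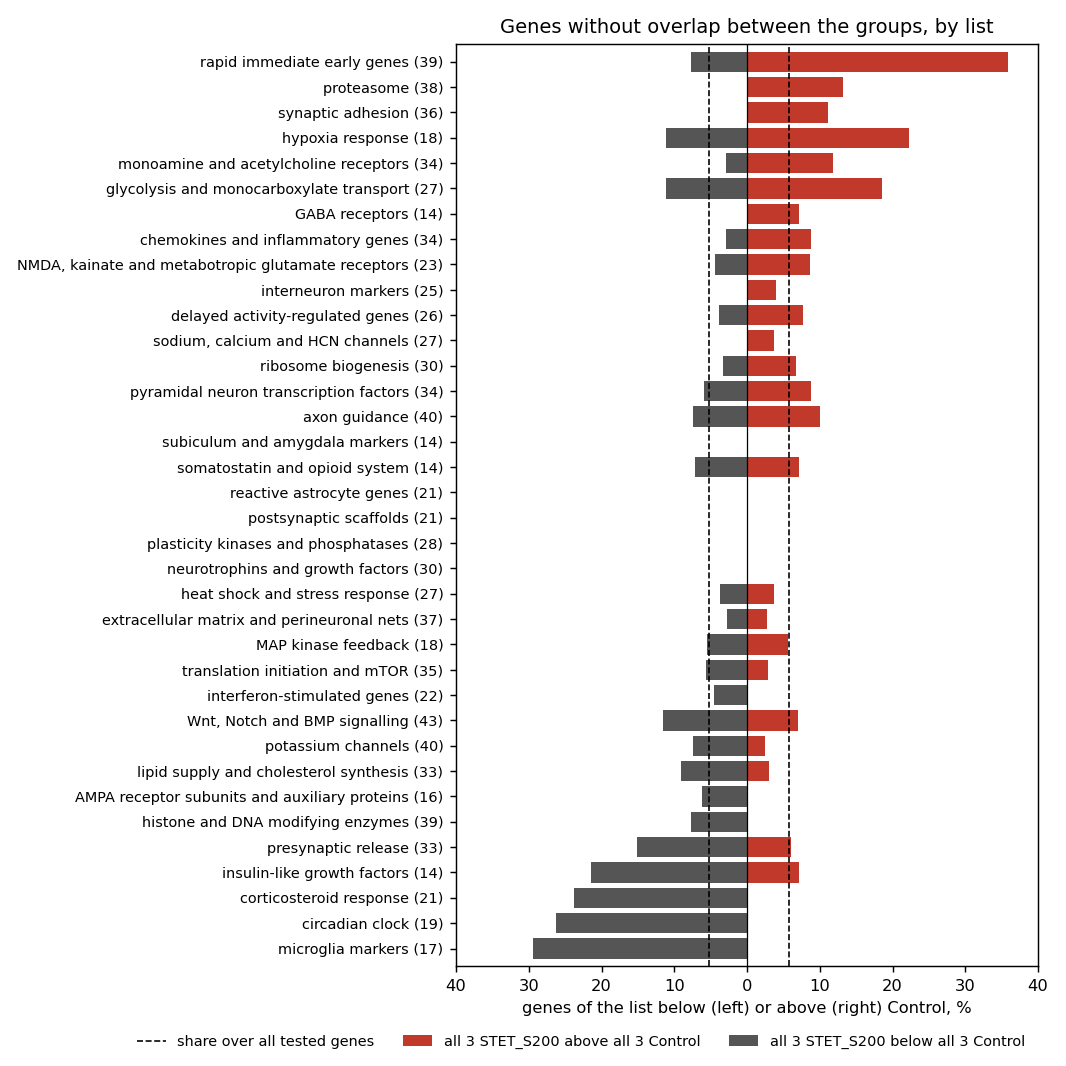
Share of the genes of each list (number tested in brackets, lists of 14 or more, without the choroid plexus list, of which 100% lay below) with all 3 STET_S200 libraries above (red, right) or below (grey, left) all 3 Control libraries, in percent. The dashed lines mark the shares over all 19492 genes (5.73% above, 5.28% below), and the rapid immediate early genes (35.9% above) and the microglia markers (29.4% below) extend furthest on either side among the lists drawn.

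Choroid plexus content moved with the group in the 6 libraries compared. All 14 of its markers lay below Control in every STET_S200 library, their median log2 fold change was −3.57, and defining markers such as Otx2 and Kcnj13 were at or near 0 in STET_S200. Since no STET_S200 library reached the Control range, choroid plexus content and the group cannot be told apart for genes that this tissue also makes. The choroid plexus score, the mean log2 CPM of the 14 markers, was −0.33, −0.63 and 0.66 in STET_S200 1, 2 and 3. In STET_S100 1, 2 and 3 it was 4.96, 5.47 and 0.22, so it also varied within a stimulated group. Several of the larger differences outside the list had their highest level in Control 2 as well. Tmem72 was at 1.40, 17.0 and 2.27 CPM in Control and at 0.0713, 0.0666 and 0.164 CPM in STET_S200, and the proline transporter gene Slc6a20a was at 7.15, 9.44 and 7.00 CPM against 4.95, 5.15 and 5.11 CPM. With the choroid plexus score as a covariate Slc6a20a was at −0.12 in place of −0.63, and Tmem72 at −1.52 in place of −6.08. The desmosomal gene Dsc3 (10.9, 4.88 and 5.25 CPM against 3.42, 0.777 and 2.49 CPM) and the connexin gene Gjb2 (11.9, 7.88 and 6.86 CPM against 6.30, 5.80 and 4.95 CPM) were highest in Control 1 instead. The glycogen regulator gene Ppp1r3g (−0.71 ± 0.19) and the Wnt receptor gene Fzd2 (−0.62 ± 0.18) were highest in Control 3 and stood at −0.40 and −0.33 in the 7 libraries without peripheral tissue RNA. Ak6, a nuclear adenylate kinase gene, was the remaining higher gene named by size (3.93, 3.25 and 3.91 CPM against 5.25, 5.22 and 4.62 CPM). In the 7 libraries without that RNA Arc differed by 1.40, Npas4 by 1.59, Fos by 0.82, Sstr3 by 0.37 and Neurod2 by 0.21, as much as in all libraries or nearly so. There STET_S200 is STET_S200 1 alone, the highest library of its group for Arc, Npas4, Fos and Sstr3.

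The STET_S200 libraries were finally set against the groups most like them. With the same edgeR test, STET_S200 differed from STET in 0 of 19492 genes (0%; smallest adjusted p 0.857; 888 at an unadjusted p under 0.05, 4.56%) and from STET_S100 in 0 (0%; smallest adjusted p 0.956; 1014 unadjusted, 5.20%). Arc differed from STET by −0.17 ± 0.32 and Npas4 by −0.38 ± 0.39, both within their error, and against STET_S100 the values were −0.24 ± 0.32 and −0.34 ± 0.39. Neurod2 had the smallest p against STET, with a log2 fold change of 0.21 ± 0.04 (unadjusted p = 5.63e-05, edgeR adjusted p = 0.857), and differed from STET_S100 by 0.06 ± 0.04. Sstr3 stood 0.23 ± 0.06 above STET and 0.06 ± 0.06 above STET_S100. Cux2 was lower than in either group (−0.21 ± 0.06 and −0.27 ± 0.06), as were Per1 (−0.22 ± 0.06 and −0.17 ± 0.06) and Adap2 (−0.55 ± 0.16 and −0.50 ± 0.16), and Lpl was higher than in either (0.23 ± 0.08 and 0.20 ± 0.08). None of these passed the adjusted threshold, so no gene was shown to be particular to the 200 Hz group.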

How the data were processed

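RNA of 12 libraries was sequenced with paired-end reads of 150 bp after poly(A) selection, per the labels' protocols. The deposited values are whole-number read counts per Ensembl gene ID, with no scaling. Tools named in the submitters' processing notes are STAR 2.7.1a, Trimmomatic 0.39, limma, R 4.0.2 and HTSeq 0.11.2. The genome build, the annotation and whether counting used strand were not given in the sources used here. Overlapping genes on opposite strands may share reads. Of 55471 IDs 55144 had a symbol.

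From these counts, genes were kept by filterByExpr (minimum count 10, minimum total 15), scaled by TMM and tested in edgeR 4.0.16 (R 4.3.3) by its quasi-likelihood F test with robust dispersion, two-sided, using every library of the 4 groups with Benjamini-Hochberg adjustment. The biological coefficient of variation was 8.25%. Reads without molecular identifiers are not independent molecules. Replicates were checked for duplicate deposits, and none was found. DESeq2 1.42.0, limma 3.58.1 (voom), other scalings and filters, a replicate block, terms for choroid plexus score and peripheral tissue RNA (Fabp4 above 1 CPM), and leaving out each library were tried as alternatives. After the data were seen, the 7 libraries without peripheral tissue RNA (2 Control, 1 STET_S200) and other scalings for the overlap counts were added. The test was also tried on simulated data.

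The comparison, its gene lists and the lists' members were chosen with earlier results of these data known. Named genes are the 12 with the smallest p each way whose mean log2 CPM was 0 or more (predicted genes left out unless among the first 3), 15 activity-regulated genes, up to 4 genes per list by smallest p, up to 8 each way by size with a mean log2 CPM of 2 or more, an unadjusted p under 0.05 and no overlap, and the genes DESeq2 called. Beyond this rule 40 genes were named after their values were seen, such as Jun, Zfp36, Rgs2, Trib1, Sik1, Tsc22d3 and Igfbp2. Where 1 symbol had several IDs, the ID with most counts was used. Some genes that the rule names are not reported here.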

Additional observations from a re-analysis of the deposited data

How the results depend on the processing

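With edgeR 0 genes passed in either direction under RLE or upper quartile scaling, a mean count of at least 10, no robust dispersion, the 6 libraries alone, a threshold of 0.1, the choroid plexus and ependymal genes left out, the choroid plexus score as a covariate, the 7 libraries without peripheral tissue RNA, and limma-voom. With no filter on low counts 20 genes passed on the higher side and 49 on the lower side, among them Sstr3, Lpl, Igfbp5, Per1 and Nr4a2. DESeq2 called 3 higher and 1 lower, and a term for peripheral tissue RNA 1 higher, Sstr3 (adjusted p = 0.0403). Leaving out 1 library gave 0 to 2 higher and 0 lower genes, the 2 being Sstr3 and Zfp36l1 without STET_S200 3. The cause was not tested.

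With the replicate number as a block 0 genes passed (smallest adjusted p 0.0578). The correlations of same-numbered libraries were 0.32, −0.12 and 0.40, and each library of pairs 1 and 3, but not of pair 2, correlated best with its own number, so the numbers were not taken to pair the samples.

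Of 139 named genes 131 kept their sign in every alternative. Igf2 (0.23), Igfbp2 (0.54), Bmp7 (0.06), Bmp6 (0.02) and Bmp4 (0.17) reversed with the choroid plexus score. Homer1 reversed with that score (0.01), the peripheral tissue term (0.02) and the 7 libraries (0.04), and Bdnf with the peripheral tissue term (0.05). When 1 library was left out, Homer1 ran from −0.08 to 0.04, Bdnf from −0.27 to 0.08 and Fosb from −0.02 to 0.09. With the score 53 named genes moved by over 1.5 times, and with the 7 libraries, where STET_S200 is 1 library assumed to vary like the other groups, 33 did.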
